A study of Mus musculus with 13 samples.

Results

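Aortas of ApoE-/- mice were set against each other here by how much of their RNA came from mitochondria, and not by treatment. The libraries were chosen by 1 measured value, the share of all counts that fell in genes of the mitochondrial genome (gene names that start with mt-). The 4 libraries with a share of at least 23% formed the high group and the 4 with a share under 14% the low group, so 8 of the 13 libraries of the series were taken. Nuclear genes were then compared between the groups, scaled to the total of nuclear counts in each library.

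The mice lacked apolipoprotein E, which makes them prone to atherosclerosis, were 6 weeks old at the start and ate a Western diet (WD) for 16 weeks, controls included. Whole aorta was profiled by poly-A RNA-seq from the diet alone (5 libraries), with auranofin at 3 mg/kg/day (3 libraries), with atorvastatin at 10 mg/kg/day (3 libraries), or with both drugs at these doses, called the combination (2 libraries). Auranofin, a gold drug, blocks thioredoxin reductase, an enzyme of redox balance, and atorvastatin lowers cholesterol by blocking its synthesis. The high group held WD 2, WD 5, auranofin 1 and auranofin 2, and the low group WD 1, WD 4, atorvastatin 1 and combination 1. The diet alone was the only treatment found in both groups, so apart from the 2 against 2 WD libraries the mitochondrial share and the drugs cannot be told apart. No batch is given, and nothing in the labels says which animal a library came from. The p-values therefore measure only the spread between these samples, which may be technical. Whole aorta is a mix of cells, and in bulk RNA fewer cells of a type and less RNA per cell cannot be told apart.

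Mitochondrial DNA is a small circular genome in the energy-producing compartment of the cell, present in many copies. In the mouse annotation used here it holds 13 protein-coding genes, 2 ribosomal RNA genes and 22 transfer RNA genes, 37 in all. Its proteins are core subunits of the respiratory chain and of ATP synthase. The other subunits of those complexes, and all of complex II, are encoded in the nucleus and imported. Tissue rich in mitochondria, such as heart muscle and brown fat, carries a large share of mitochondrial RNA. The share in a library also moves with how much cytosolic RNA was kept.

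The mitochondrial share was 38.8% in auranofin 2, 26.9% in WD 2, 24.2% in WD 5 and 24.0% in auranofin 1. It was 13.5% in WD 4, 12.2% in atorvastatin 1, 11.3% in combination 1 and 9.36% in WD 1. The libraries just outside the thresholds were atorvastatin 3 at 21.1% and atorvastatin 2 at 14.9%, with WD 3 at 19.4%, combination 2 at 19.1% and auranofin 3 at 16.0% between them. These values chose the groups and are a description, as are the differences in mt- genes below. Auranofin 2 stood well above the other 12 libraries, and the others followed without a comparable gap, so both thresholds cut a series of values. Total counts ran from 19703683 to 26079566 per library over the 13, and nuclear counts from 14795417 to 20584926 over the 8. The 100 most abundant nuclear genes took 33.6% to 48.1% of nuclear counts in the high group and 27.0% to 28.7% in the low group.

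A part of what the table counts as nuclear had mitochondrial sequence. When the annotated mouse transcripts were aligned to the mitochondrial ones, 12 nuclear pseudogenes matched at 93.6% to 100% identity. They are copies of mitochondrial sequence in chromosomes. Gm4076 and Gm11408, with 70 and 24 counts over all libraries, are annotated as processed pseudogenes and the others as unprocessed. On build GRCm38, 7 of them lie side by side on chromosome 1 between positions 24611535 and 24616197, on the minus strand, within 4663 bases, and these 7 held 99.1% of all counts given to the copies. The stretches below show why reads of the one can be counted as the other. Gm10925 (chromosome 1, 24613974 to 24614651, minus strand, unprocessed pseudogene) held the most counts of the 12, and its first 60 bases equal those of mt-Atp6 (chromosome M, 7927 to 8607, plus strand), which codes for a membrane subunit of ATP synthase. Gm13339 (chromosome 2, 22590024 to 22590533, minus strand) is a less exact copy of mt-Nd2 (chromosome M, 3914 to 4951, plus strand), a complex I subunit, shown from base 529 of mt-Nd2, with capitals at the base that differs, T579C counted from the first base of mt-Nd2.
mt-Atp6: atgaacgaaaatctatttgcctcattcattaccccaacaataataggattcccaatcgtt
Gm10925: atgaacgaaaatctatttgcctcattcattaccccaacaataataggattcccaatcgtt
mt-Nd2: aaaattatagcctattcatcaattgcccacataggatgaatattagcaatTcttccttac
Gm13339: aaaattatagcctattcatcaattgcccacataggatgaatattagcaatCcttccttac

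The 12 copies took 35.5% of the nuclear counts in auranofin 2, 23.3% in WD 2, 19.6% in WD 5 and 17.0% in auranofin 1. They took 8.19% in WD 4, 7.27% in atorvastatin 1, 7.10% in combination 1 and 5.81% in WD 1. The groups did not overlap, and the order of all 13 libraries by mt- genes plus copies was the same as by mt- genes alone. Where the copies took up reads of mitochondrial genes, this follows from the value that chose the groups. It is a description and no separate result. With the copies added, mitochondrial sequence made up 60.5% of all counts in auranofin 2 and 14.6% in WD 1. Scaling to a total that holds the copies lowers every other nuclear gene more in the high libraries: leaving the copies out raised counts-per-million (CPM) values by a factor of 1.55 in auranofin 2 and 1.06 in WD 1. Fold changes were therefore also computed with the copies left out of the total and of the test, an alternative chosen after seeing the data, and that value is given beside the one on the nuclear total.

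**Figure D1:**
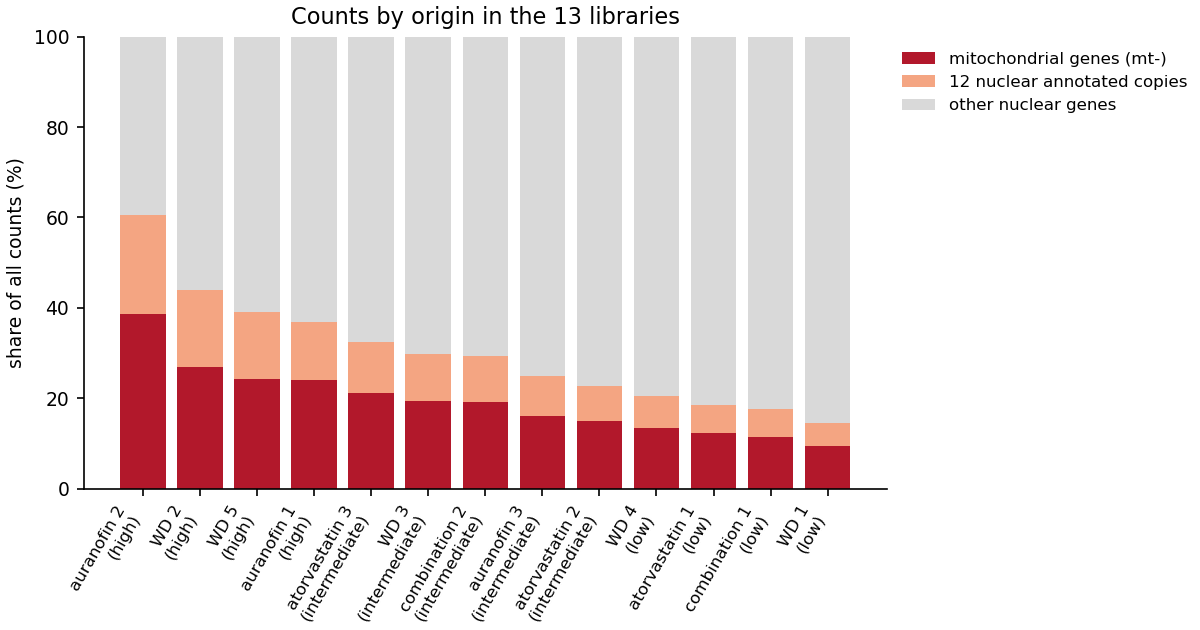
Share of all counts (%) in the 13 libraries, ordered by mitochondrial share, split into mitochondrial genes, the 12 nuclear annotated copies and other nuclear genes. The other nuclear genes hold the smallest part of the bar in auranofin 2, where mitochondrial genes and copies together reach 60.5%.

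Within the mitochondrial total the make-up differed little between the groups. Counts were found for 16 of the 37 genes, and the 13 protein-coding genes took 94.6% to 97.4% of the mitochondrial counts in the high libraries and 96.2% to 97.6% in the low ones. mt-Co1, the catalytic subunit of cytochrome c oxidase, took 19.4%, 18.2%, 19.6% and 22.1% of the mitochondrial counts in auranofin 2, WD 2, WD 5 and auranofin 1. It took 25.8% in WD 4, 25.0% in atorvastatin 1, 23.7% in combination 1 and 25.2% in WD 1. It was the only one of the 16 genes whose share of the mt- counts did not overlap between the groups. Counts given to the nuclear copies are left out of these shares. Whether the gap in mt-Co1 holds with them added was not tested. mt-Nd5, a large complex I subunit, took 1.35% to 3.33% in the high libraries and 2.80% to 4.52% in the low ones. mt-Nd3, a small subunit of the same complex, took 1.26% to 1.99% and 1.03% to 1.34%. Genes such as mt-Atp6 whose reads may be shared with an identical or nearly identical nuclear copy have uncertain values in this table.

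With only the nuclear total as scale, the edgeR quasi-likelihood test called none of 16473 nuclear genes between 4 high and 4 low libraries at a Benjamini-Hochberg adjusted p of 0.05 (percent called 0, smallest adjusted p 0.136). At an unadjusted p under 0.05, 3.58% of genes were higher and 18.8% lower in the high libraries, and the median log2 fold change of all genes was -0.37, so every fold on this scale is read against that shift. With the copies left out, 9.19% were higher and 6.18% lower, the median was -0.08 and again no gene passed the adjusted threshold. DESeq2 called 782 genes on the nuclear total and limma voom none. Without auranofin 1, the high library with the lowest share, edgeR called 4226 genes, and 510 with the copies also left out. Leaving out any other single library gave no call on the nuclear total.

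The share can also be used as a number over all 13 libraries, with treatment as a second term, which takes in the 5 libraries between the thresholds. With the copies left out, this edgeR fit called 297 of 17129 genes, with 220 rising with the share (1.28%) and 77 falling (0.45%). It called from 51 genes without auranofin 2 to 1430 without WD 3 when each library was left out in turn. Fold changes from this fit are per 10 percentage points of mitochondrial share. A second reading that needs no model is whether the groups overlap: with the copies left out, all 4 high libraries were above all 4 low ones for 680 of 16449 genes (4.13%) and below them for 785 (4.77%). In the 5 intermediate libraries the mean lay between the 2 group means for 80.9% of the 680 and for 66.8% of the 785. These genes were picked for the gap between the groups, and no such share was taken over other genes. The figures are thus a description and no independent check.

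Nuclear subunits of oxidative phosphorylation were higher together where the mitochondrial share was high. The list of 78 tested genes, called subunits below, also holds cytochrome c (Cycs), a mobile carrier counted with complexes II and III, and the ATPase inhibitor Atpif1, counted with ATP synthase. All 78 had a positive log2 fold change with the copies left out, with a median of 1.14 and a range from 0.24 to 1.55, against -0.08 over all genes. On the nuclear total the median was 0.84, against -0.37 over all genes. In the fit on the share over 13 libraries, 53 of the 78 rose and none fell, against 1.28% and 0.45% of all genes. With each library left out in turn, between 31 (without auranofin 2) and 63 (without WD 3) of the 78 were called, with a median between 0.58 and 0.72 per 10 percentage points. Between the 2 WD pairs alone the median was 1.12, but it was 0.52 for complexes II and III, and 5 of the 78 were negative there with the copies left out: Ndufs1 at -0.53, Sdha at -0.44, Uqcrc2 at -0.22, Atp5b at -0.17 and Atp5a1 at -0.16.

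Complex I takes electrons from NADH, and 27 of its 36 nuclear subunits rose in the 13-library fit, against 1.28% of all genes. The groups did not overlap for 28 of the 36, all higher, against 4.13% of all genes. Ndufb9, an accessory subunit, was at 79.6 CPM in auranofin 2, 67.7 in WD 2, 79.9 in WD 5 and 58.0 in auranofin 1, against 36.3 in WD 4, 23.5 in atorvastatin 1, 35.0 in combination 1 and 29.6 in WD 1. Every high library was above every low one. Its log2 fold change was 1.20 ± 0.23 (SE) on the nuclear total (edgeR, adjusted p = 0.156) and 1.51 with the copies left out. It rose by 0.90 per 10 percentage points in the 13-library fit (edgeR, adjusted p = 0.00423). Ndufa3, another accessory subunit, was at 134, 141, 118 and 73.0 CPM in the same order of high libraries and at 58.0, 35.6, 50.6 and 55.1 CPM in the low ones. Ndufs8, an iron-sulfur subunit, was at 79.7 to 111 CPM in the high and 36.4 to 54.1 CPM in the low libraries. Both rose in the 13-library fit (edgeR, adjusted p = 0.00423 for each). Ndufc1, a further accessory subunit, ran from 34.6 to 52.6 and from 13.99 to 26.6 CPM.

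Complexes II and III, which pass electrons from succinate and from ubiquinol, had 7 of 14 nuclear subunits rising in the 13-library fit and 10 of 14 without overlap. The shares over all genes were 1.28% rising and 4.13% apart and higher. Uqcr10, a small subunit of complex III, was at 158, 189, 156 and 110 CPM in auranofin 2, WD 2, WD 5 and auranofin 1. It was at 70.0 in WD 4, 46.7 in atorvastatin 1, 82.9 in combination 1 and 70.5 CPM in WD 1, and the groups were apart. Uqcrb of the same complex ran from 187 to 275 CPM in the high and from 96.6 to 131 CPM in the low libraries. Sdha, the catalytic subunit of complex II, was at 393 and 402 CPM in auranofin 2 and auranofin 1 but at 120 and 200 CPM in WD 2 and WD 5, so the first pair lay above and the second below the 217 to 303 CPM of the low group. Its log2 fold change was 0.08 ± 0.37 (SE, edgeR, adjusted p = 0.903) on the nuclear total and 0.40 with the copies left out.

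Cytochrome c oxidase, the complex that reduces oxygen, had all 10 of its general nuclear subunits rising in the 13-library fit. For all 10 the groups did not overlap. Over all genes 1.28% rose and 4.13% were apart and higher. Cox7a2 was at 154, 191, 161 and 105 CPM in auranofin 2, WD 2, WD 5 and auranofin 1. The low libraries WD 4, atorvastatin 1, combination 1 and WD 1 were at 78.4, 55.2, 78.7 and 75.6 CPM. Cox6b1 ran from 231 to 417 against 111 to 158 CPM. Cox4i1, the widely expressed form of subunit 4, ran from 203 to 318 against 137 to 212 CPM, and its groups overlapped on the nuclear total but not with the copies left out. The tissue-bound forms behaved differently. Cox8b and Cox7a1, forms of heart, skeletal muscle and brown fat, were high in auranofin 2 at 314 and 124 CPM and at 39.2 and 12.6 CPM in WD 2, where Cox8b lay within the range of the low group and Cox7a1 below it. Cox6a2, the striated muscle form, was at 24.3 CPM in WD 4 and 20.5 CPM in WD 1 and at 0.110 to 1.29 CPM in the high libraries. WD 4 and WD 1 do not stand for the whole low group here. They also held the most heart muscle RNA of that group, as given below. With the copies left out, none of the 3 tissue-bound forms had groups apart.

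ATP synthase had 9 of 18 nuclear subunits rising in the 13-library fit and 11 of 18 without overlap, against 1.28% and 4.13% of all genes. Atp5mpl, a small membrane subunit, was at 75.2, 117, 82.0 and 52.9 CPM in auranofin 2, WD 2, WD 5 and auranofin 1, and at 40.4, 23.6, 40.8 and 39.1 CPM in WD 4, atorvastatin 1, combination 1 and WD 1. Atp5a1, the alpha subunit of the catalytic head, was at 350 to 615 CPM in the high and 463 to 560 CPM in the low libraries, with a log2 fold change of -0.06 ± 0.27 (SE). The direction for Atp5a1 depended on the scale, since it was 0.24 with the copies left out. Some of these short genes have near-identical pseudogenes elsewhere, and their counts are uncertain to that extent.

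**Figure D2:**
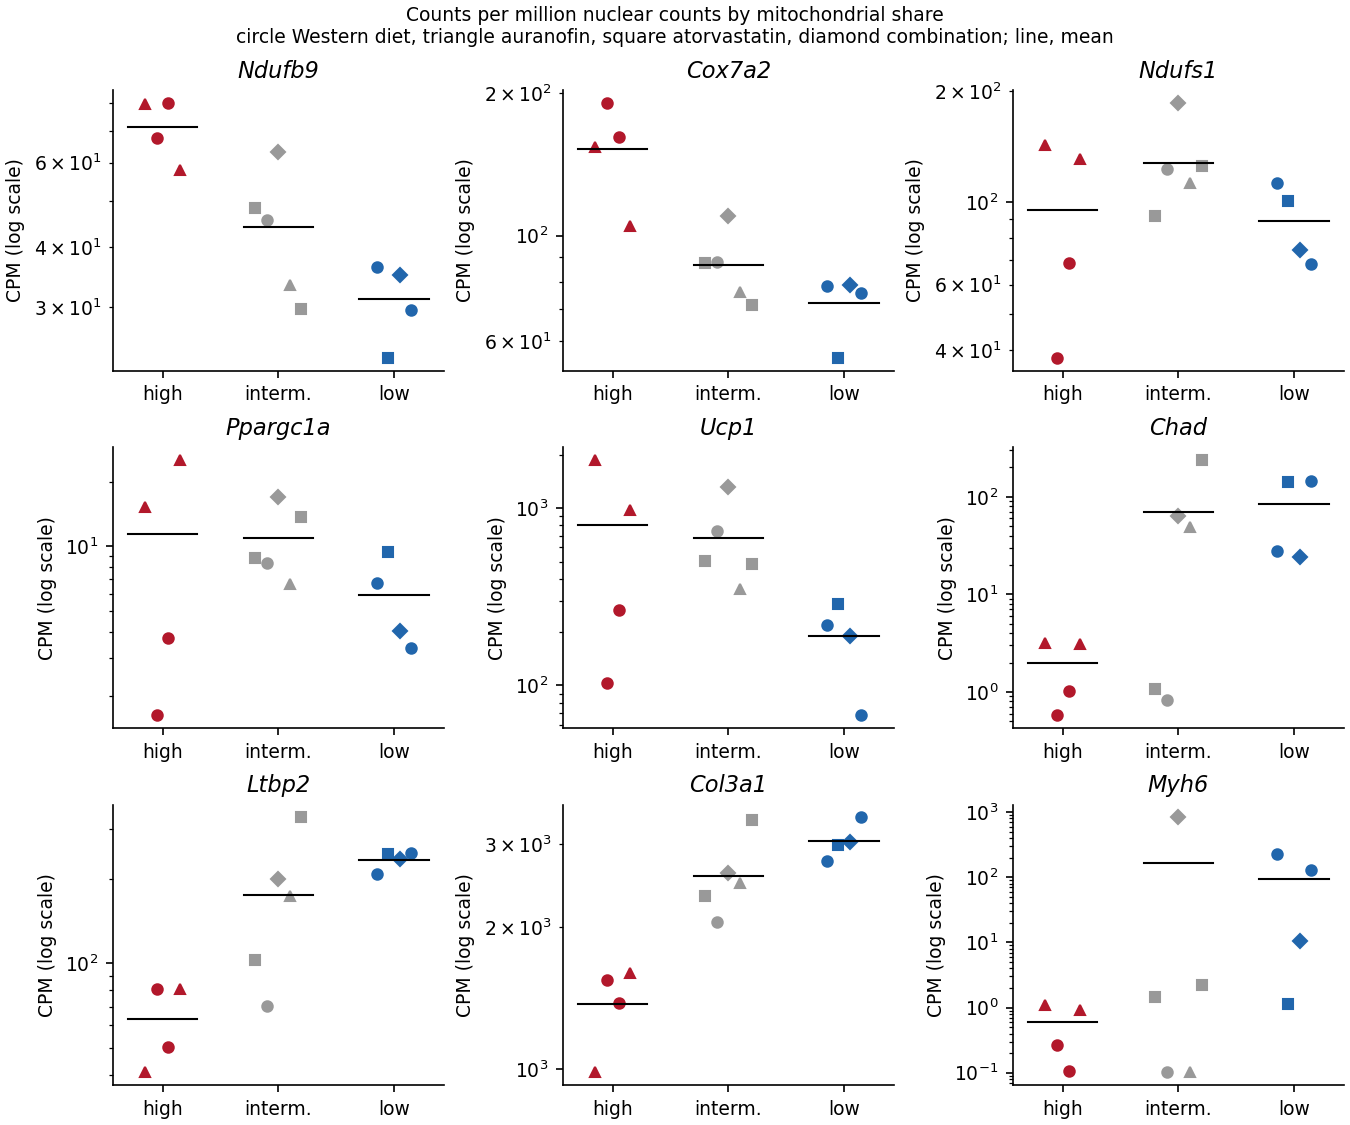
CPM of the nuclear total (log axis) of 9 genes in each library, by mitochondrial share, with the symbol giving the treatment and the line the group mean. Ndufb9 and Cox7a2 are above, and Chad, Ltbp2 and Col3a1 below, the low group in all 4 high libraries, while Ndufs1, Ppargc1a and Ucp1 overlap and Myh6 is high in 2 of the 4 low libraries.

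Subunits with short transcripts differed more than those with long ones. The longest annotated transcript of each gene (GENCODE M21) served as its length. The 39 shorter subunits, of 419 to 1046 bases, had a median log2 fold change of 1.27 with the copies left out, and the 39 longer ones, of 1141 to 6310 bases, of 0.85. Across the 78 subunits Spearman's rho between length and fold change was -0.57, given as a description, and -0.52 with the median transcript length of each gene. Between the WD libraries alone the medians were 1.29 and 0.54. Ndufs1, the large iron-sulfur subunit of complex I, was at 143 and 131 CPM in auranofin 2 and auranofin 1 but at 38.0 and 68.6 CPM in WD 2 and WD 5, and the low libraries lay between 68.2 and 113 CPM. Several subunits of the longer set were also high with the copies left out. Among them were Atp5md at 1.37, Cox6c at 1.32 and Atp5l, the longest of the 78 by this measure, at 1.25. The longest annotated transcript need not be the main one. For Uqcrq and Ndufc1, also of the longer set, it had 1521 and 1249 bases. The medians over their annotated transcripts were 454.5 and 407.5 bases. Which transcripts were present in these libraries was not tested.

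The same gradient ran through all nuclear genes. Of the 16449 genes tested without copies, 98.2% had a length. These were split by length into 4 classes of nearly equal size. The class with the shortest transcripts, up to 1868 bases, had a median log2 fold change of 0.44, the next 0.02, the next -0.21 and the longest, from 4573 bases, -0.38. In the shortest class 26.8% of genes were higher at an unadjusted p under 0.05 and 1.26% lower, and in the longest class 0.917% were higher and 12.6% lower. Between the WD libraries alone the medians ran from 0.46 to -0.77. Across these genes Spearman's rho was -0.52 with the longest transcript and -0.34 with the median transcript length, again a description, since genes of 1 library are not independent. The cytosolic ribosomal proteins, with a median length of 1100 bases, had a median log2 fold change of 1.16, beside 1.14 for the 78 subunits.

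The gradient was not shared by all high libraries. With the copies left out, each gene was set against its own mean over the 13 libraries, and the median of the longest class minus that of the shortest was -1.43 in WD 2, -0.76 in WD 5 and -0.42 in auranofin 2, on the log2 scale. In auranofin 1 it was 0.25, within the 0.13 to 0.53 of the intermediate libraries. The low libraries were at 0.19, 0.85, -0.09 and -0.04 in WD 4, atorvastatin 1, combination 1 and WD 1. The subunits of oxidative phosphorylation, measured the same way, were at 0.96 in auranofin 2, 0.87 in WD 2, 0.65 in WD 5 and 0.13 in auranofin 1. They were at -0.27, -0.81, -0.34 and -0.44 in the low libraries. All 4 high libraries were thus above all 4 low ones in the subunits, auranofin 1 by the least, and combination 2, an intermediate library, was above auranofin 1 at 0.24. The part of transcript length in the differences between the groups was not tested.

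**Figure D3:**
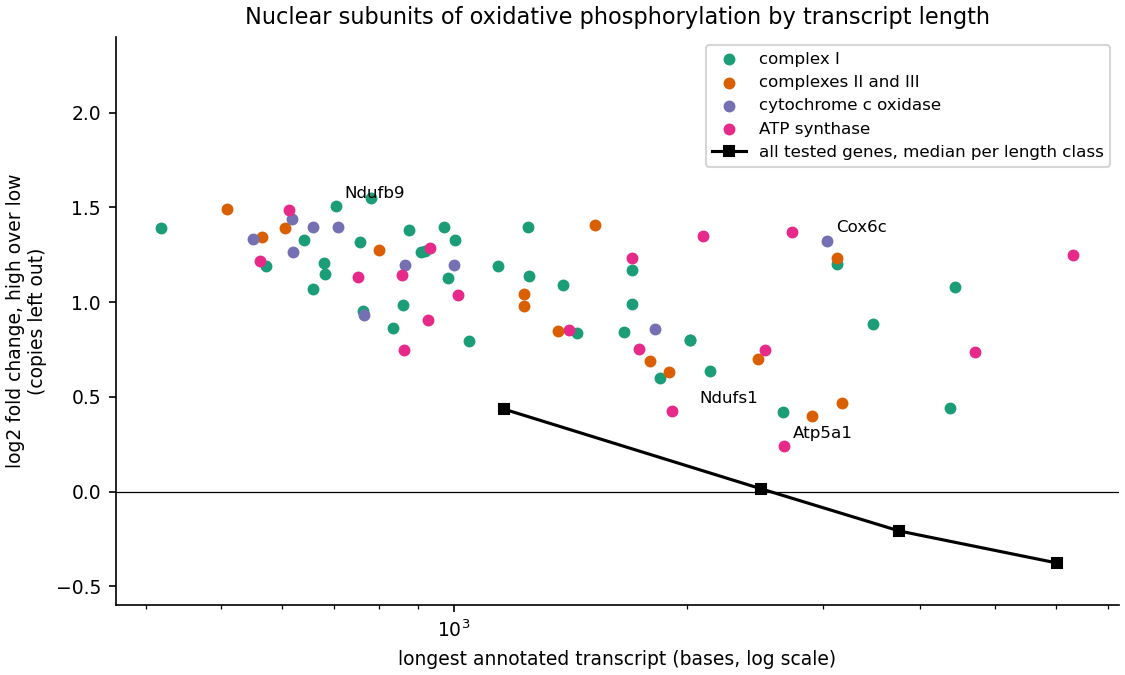
Log2 fold change, high over low mitochondrial share with the copies left out, against the longest annotated transcript (bases, log axis) for the 78 nuclear subunits, with the median of all tested genes per length class as squares. All subunits lie above 0 and the class medians fall from 0.44 to -0.38.

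**Figure D4:**
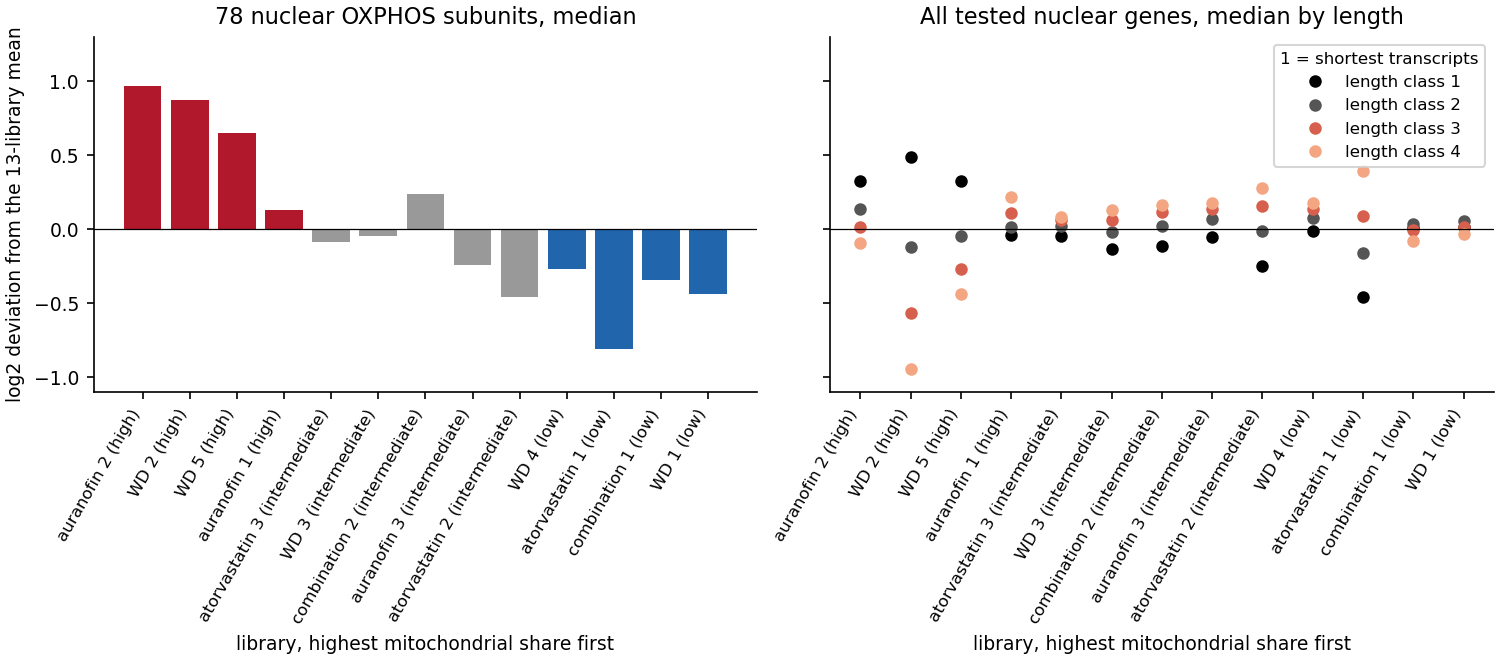
Median log2 deviation from the 13-library mean per library with the copies left out, highest mitochondrial share first, for the 78 subunits (left) and for all tested genes by length class (right). The classes spread widest in WD 2, where the longest is at -0.95 and the shortest at 0.48, and their order is turned in auranofin 1.

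Promoters of the subunits were searched for the binding motif of NRF1, a factor known for driving nuclear genes of the respiratory chain. The core searched was GCGCA, then any 1 base, then GCGC, on both strands, in the 250 bases before the start site (RefSeq, GRCm38.p6), and 65 of the 78 subunits had a promoter in the table. It was found in 14 of the 65 (21.5%), against 8.38% of 11450 tested genes and 4.23% of all 27025 genes with a promoter. The 4 below have the smallest p on the nuclear total among subunits whose match has 15 bases of the window on each side. They are shown with those bases and the match in capitals, so that the shared core can be read beside its different surroundings. They lie at chromosome 6, 24527692 to 24527731 (Ndufa5), chromosome 16, 37654535 to 37654574 (Ndufb4), chromosome 5, 115349096 to 115349135 (Cox6a1) and chromosome 4, 123718260 to 123718299 (Ndufs5), all on the minus strand.
Ndufa5: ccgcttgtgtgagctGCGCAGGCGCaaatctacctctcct
Ndufb4: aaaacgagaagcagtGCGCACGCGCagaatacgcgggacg
Cox6a1: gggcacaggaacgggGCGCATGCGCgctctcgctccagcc
Ndufs5: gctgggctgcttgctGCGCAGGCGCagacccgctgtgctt

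A match is a run of letters and not a bound site. The 14 subunits with a match had a median log2 fold change of 1.18, from 0.40 to 1.40, and the 51 without one had 1.14, from 0.42 to 1.55, so the ranges overlapped almost wholly.

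Proteins of the mitochondrial ribosome, which translate the 13 mitochondrial messages, differed less than the subunits. Of 76 tested, 13 rose in the 13-library fit and 31 did not overlap. Over all genes 1.28% rose, 0.45% fell and 4.13% were apart and higher, which holds for each list of this paragraph. The median log2 fold change of these proteins was 0.37 on the nuclear total and 0.66 with the copies left out. Mrps36 was at 56.0, 55.1, 35.7 and 36.2 CPM in auranofin 2, WD 2, WD 5 and auranofin 1 and at 26.9, 21.1, 24.7 and 23.6 CPM in WD 4, atorvastatin 1, combination 1 and WD 1. Mrpl30 ran from 46.9 to 92.4 against 24.4 to 40.6 CPM. Both rose in the 13-library fit (edgeR, adjusted p = 0.00446 and 0.00729). Protein import and inner membrane carriers had 10 of 22 members without overlap, with a median of 0.56 with the copies left out and 0.27 on the nuclear total, and -0.03 when scaled to the total of all counts. Tomm7 of the outer membrane translocase was at 132 CPM in WD 2 and 103 CPM in WD 5 but at 47.2 CPM in auranofin 1, level with the 28.9 to 48.2 CPM of the low group. In the fit over 13 libraries 5 of the 22 rose (Tomm5, Tomm7, Timm8b, Timm10 and Timm23) and none fell. Among 19 genes of mitochondrial stress response, mitophagy and dynamics 2 rose in it, the matrix protease Clpp and Hspe1, of which Hspe1, the partner of the matrix chaperonin, ran from 73.4 to 106 against 34.9 to 57.5 CPM.

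Genes that copy and transcribe mitochondrial DNA differed less. With the copies left out 24 of the 30 tested had a positive log2 fold change, and 13 on the nuclear total. Of the 30 tested for transcription, replication and RNA handling, 1 rose and none fell in the 13-library fit, against 1.28% and 0.45% of all genes. Groups were apart and higher for 3 of the 30, against 4.13%. The list's median was -0.05 on the nuclear total and 0.25 with the copies left out. Tfam, which packages mitochondrial DNA and starts its transcription, was at 25.8, 16.6, 20.5 and 23.9 CPM in auranofin 2, WD 2, WD 5 and auranofin 1 and at 22.03 to 25.2 CPM in the low libraries. Its log2 fold change was -0.13 on the nuclear total and 0.18 with the copies left out. Polrmt, the mitochondrial RNA polymerase, was at 9.33 to 18.3 CPM against 15.8 to 23.1 CPM, with a log2 fold change of -0.53 ± 0.27 (SE, edgeR, adjusted p = 0.246) on the nuclear total and -0.25 with the copies left out. Hsd17b10, a subunit of the enzyme that trims mitochondrial transfer RNAs, was the member that rose, at 58.6 to 104 against 33.9 to 57.7 CPM.

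Regulators of mitochondrial biogenesis split within the high group. Ppargc1a, the coactivator that drives formation of mitochondria, was at 25.3 CPM in auranofin 1 and 15.2 CPM in auranofin 2 but at 1.63 CPM in WD 2 and 3.75 CPM in WD 5, against 3.35 to 9.43 CPM in the low libraries. The high libraries given auranofin were thus above, and WD 2 below, the whole low group. The log2 fold change of Ppargc1a was 0.96 ± 0.70 (SE, edgeR, adjusted p = 0.375), 1.25 with the copies left out, and -0.68 between the WD libraries with the copies left out. Pprc1, a related coactivator, was at 11.3 to 28.7 CPM in the high and 30.0 to 48.0 CPM in the low libraries. None of the 14 regulators rose or fell in the 13-library fit, against 1.28% and 0.45% of all genes. Mfn2, of the list of stress response and dynamics, which fuses mitochondria, was at 61.5, 38.1, 74.4 and 114 CPM in auranofin 2, WD 2, WD 5 and auranofin 1, against 98.7 to 152 CPM.

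Fuel oxidation in the matrix split in the same way. Genes of the tricarboxylic acid cycle and pyruvate entry, measured against the 13-library mean with the copies left out, had a median of 0.95 in auranofin 2 and 0.38 in auranofin 1, but -0.98 in WD 2 and -0.37 in WD 5. Fatty acid oxidation was at 1.17 and 0.55 in the auranofin libraries and at -0.96 and -0.25 in the WD libraries. The low libraries ran from -0.72 to -0.18 in the first list and from -0.95 to -0.11 in the second. Over the 4 against 4 libraries the medians were 0.66 and 0.87 with the copies left out, and between the WD libraries alone -0.19 and -0.18. Cs, citrate synthase, often used as a gauge of mitochondrial mass, was at 371 and 413 CPM in auranofin 2 and auranofin 1, 144 CPM in WD 2 and 302 CPM in WD 5, against 255 to 343 CPM. Mpc2, part of the pyruvate carrier, was higher in all 4 at 87.5 to 154 against 41.4 to 63.3 CPM and rose in the 13-library fit (edgeR, adjusted p = 0.00423). With Mpc1 of the same carrier and Idh3g, an isocitrate dehydrogenase subunit, it made up the 3 of 18 genes of the cycle list that rose. None of 16 for fatty acid oxidation did, and 1.28% of all genes. Suclg1, succinate-CoA ligase, ran from 78.4 to 203 against 65.3 to 91.7 CPM. Cpt1a, which admits fatty acids to the mitochondrion, was at 45.9 to 87.6 against 87.1 to 143 CPM.

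**Figure D5:**
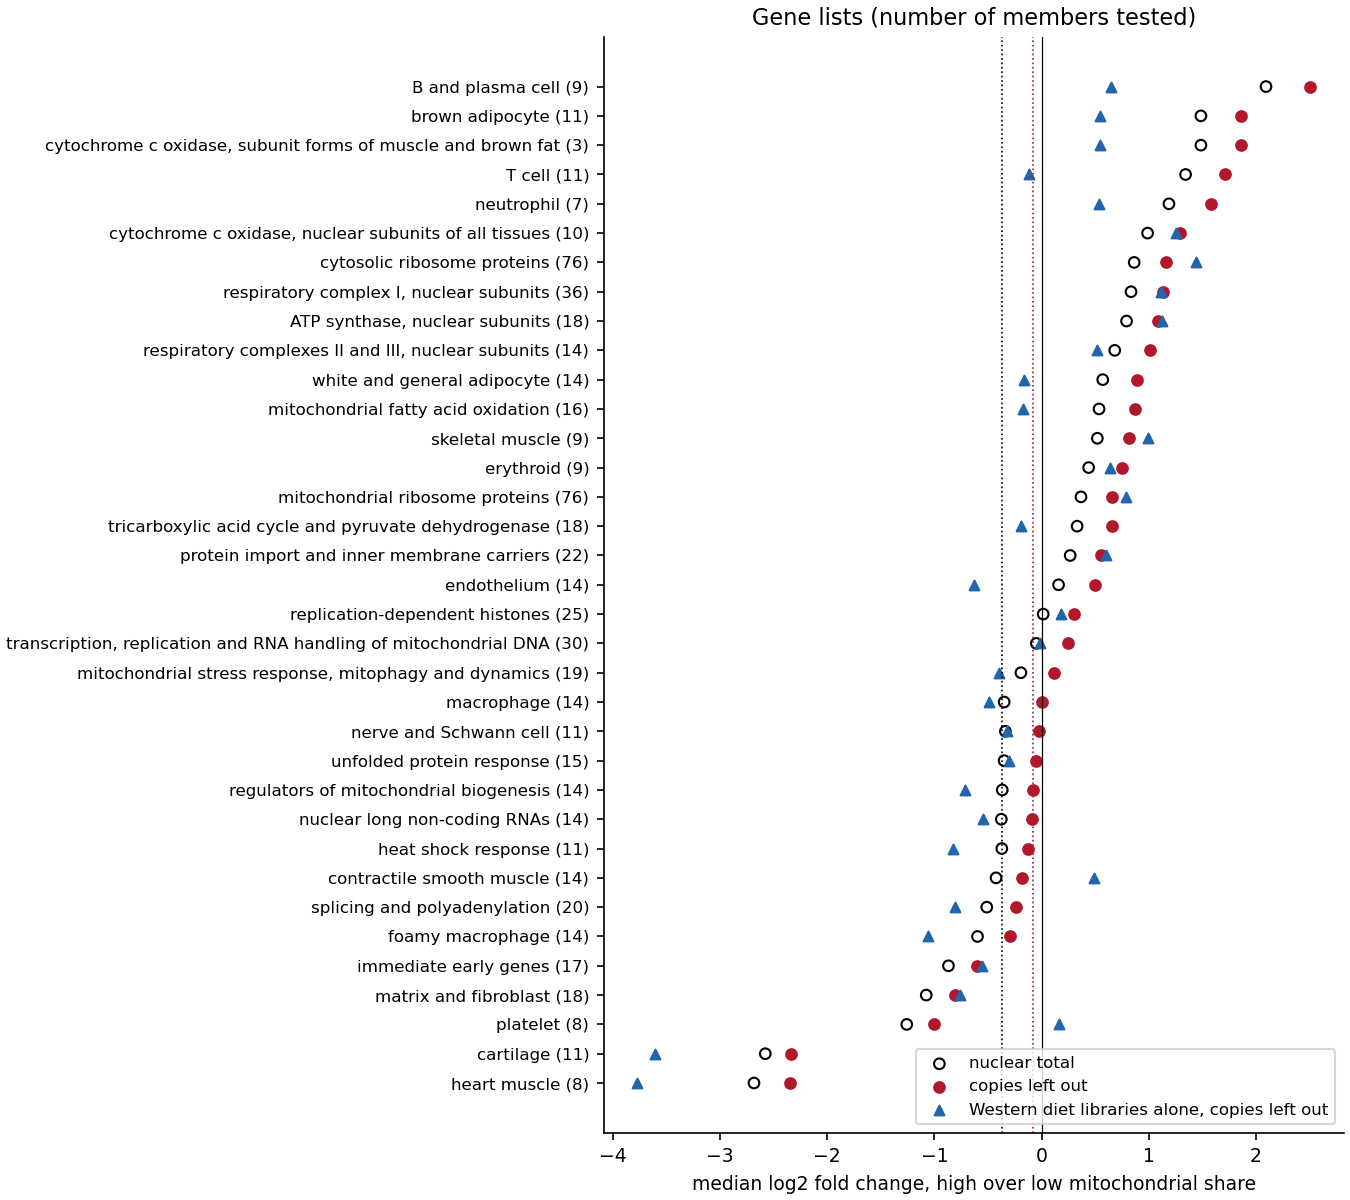
Median log2 fold change, high over low mitochondrial share, of each gene list on the nuclear total (open circles), with the copies left out (filled circles) and between the WD libraries alone with the copies left out (triangles). Dotted lines mark the medians of all tested genes, -0.37 and -0.08, and the lists of respiratory complexes lie to the right of them on all 3 scales.

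Of the 8 libraries, the 2 given auranofin alone held the most RNA of brown fat genes, while combination 1, which also had auranofin, was at 481 CPM in the summed level of the list. Ucp1, which lets brown fat make heat, was at 1864 CPM in auranofin 2 and 977 CPM in auranofin 1, and at 103 CPM in WD 2 and 265 CPM in WD 5, against 67.9 to 286 CPM in the low group. The 2 WD libraries of the high group lay within the low range. The summed level of the brown fat list was 3112 and 1827 CPM in the auranofin pair, 257 and 714 CPM in WD 2 and WD 5 and 279 to 733 CPM in the low libraries. At an unadjusted p under 0.05, 6 of the 11 were higher and 1 lower on the nuclear total, against 3.58% and 18.8% of all genes. No brown fat member was apart between the groups, and 1 of the 11 tested, Cox8b, rose in the 13-library fit, against 1.28% of all genes. Adipoq, an adipocyte hormone, was at 65.7 to 207 against 36.6 to 170 CPM. Leptin (Lep) was lower in all 4 high libraries, at 0.262 to 1.499 against 2.46 to 4.81 CPM. It went against most of the 14 white and general fat genes. Of these, 11 had a positive log2 fold change on the nuclear total and 12 with the copies left out. Resistin (Retn) was at 22.4 to 40.0 against 2.51 to 31.6 CPM, where WD 4 alone of the low group reached the high range. The part of brown fat in the differences between the groups was not tested.

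Heart muscle RNA went the other way. Myh6, the atrial and adult mouse heart myosin, was at 231 CPM in WD 4 and 131 CPM in WD 1, with 1.13 CPM in atorvastatin 1 and 10.6 CPM in combination 1, and at 0.107 to 1.08 CPM in the high libraries. Myl2, a ventricular myosin light chain, had 1938 counts in WD 4 and 1636 in WD 1 and at most 4 in a high library. The list's summed level was 906 and 643 CPM in these 2 libraries and 80.6 and 86.0 CPM in the other low ones. In the high libraries it was 26.6 to 61.8 CPM. Of its 14 members 8 were tested, and 5 of the 8 were lower at an unadjusted p under 0.05, against 18.8% of all genes. None of the 8 had groups apart with the copies left out, against 4.77% of all genes. Members such as Myh6 entered the test through their level in the low group, so the count of 5 is no added support. Beyond the groups, combination 2, an intermediate library, held more Myh6 than any of the 8, at 830 CPM.

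Genes of cartilage and of extracellular matrix were lower in the high libraries. Of 11 cartilage genes, 10 were lower at an unadjusted p under 0.05 on either scale, against 18.8% of all genes on the nuclear total and 6.18% with the copies left out. Groups were apart with the copies left out for 7, against 4.77%, and 1, Acan, fell in the 13-library fit, against 0.45%. The list's summed level ran from 57.9 to 140 CPM in the high and from 275 to 1290 CPM in the low libraries. The list's median was -2.58 on the nuclear total and -2.34 with the copies left out. Chad, chondroadherin, a protein of cartilage matrix, was at 3.18, 0.577, 1.02 and 3.12 CPM in auranofin 2, WD 2, WD 5 and auranofin 1, and at 27.8, 141, 24.1 and 146 CPM in WD 4, atorvastatin 1, combination 1 and WD 1. The groups were far apart, and the intermediate libraries atorvastatin 3 and WD 3 were as low as the high ones at 1.07 and 0.831 CPM. Its log2 fold change was -5.44 ± 0.80 (SE) and -5.11 with the copies left out, with the smallest p of the named genes (edgeR, adjusted p = 0.136). Acan, the main cartilage proteoglycan, ran from 4.73 to 19.3 against 32.2 to 98.3 CPM and fell by 1.39 on the log2 scale per 10 percentage points (edgeR, adjusted p = 0.0172). Sox9, the master regulator of cartilage, ran from 2.20 to 6.24 against 10.6 to 18.8 CPM, and Ibsp, a bone sialoprotein, from 1.28 to 13.5 against 18.9 to 298 CPM.

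Of 18 matrix and fibroblast genes, 12 were lower at an unadjusted p under 0.05 on the nuclear total (18.8% of all genes were) and 11 with the copies left out (6.18%). The groups were apart for 8 of the 18 (4.77%), and 3, Fn1, Fbn1 and Col5a1, fell in the 13-library fit (0.45%). The list's summed level ran from 9052 to 13881 CPM in the high and from 21404 to 26087 CPM in the low libraries. Col3a1, type III collagen, was at 984, 1546, 1378 and 1594 CPM in auranofin 2, WD 2, WD 5 and auranofin 1 and at 2764, 2980, 3032 and 3415 CPM in WD 4, atorvastatin 1, combination 1 and WD 1. Col1a1, type I collagen, ran from 554 to 945 against 1388 to 1793 CPM. Fn1, fibronectin, ran from 686 to 1926 against 2849 to 6025 CPM, and Fbn1, fibrillin-1 of elastic microfibrils, from 113 to 241 against 301 to 480 CPM. Fn1 and Fbn1 fell in the 13-library fit (edgeR, adjusted p = 0.036 and 0.0395). These transcripts are long, with a list median of 4717 bases, in the longest class, which was lower as a whole. With the copies left out the list's median log2 fold change was -0.81, beside -0.38 for that class. The part of length in this was not tested.

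The genes with the smallest p outside these lists did not pass either. Ltbp2, which binds elastic microfibrils, was at 40.8, 81.1, 50.2 and 81.0 CPM in auranofin 2, WD 2, WD 5 and auranofin 1 and at 208, 245, 235 and 247 CPM in WD 4, atorvastatin 1, combination 1 and WD 1. Its log2 fold change was -1.88 ± 0.28 (SE, edgeR, adjusted p = 0.136), -1.61 with the copies left out, and it fell in the 13-library fit (edgeR, adjusted p = 0.0457). Hand2, a transcription factor of heart and vessel development, was at 0.676 to 1.86 against 5.17 to 9.05 CPM, and the gene listed as Hdnr at 0.203 to 0.493 against 1.92 to 2.72 CPM. Hdnr entered the test only through its level in the low group, so its small p is no added support. Cx3cl1, fractalkine, a membrane-bound chemokine, was at 22.2 to 37.5 against 72.8 to 119 CPM. On the higher side stood Cisd3, an iron-sulfur protein of the mitochondrial matrix, at 52.4 to 87.0 against 23.3 to 39.3 CPM, and Timp4, an inhibitor of matrix metalloproteinases, at 18.05 to 59.6 against 10.5 to 16.9 CPM. Cisd3 rose in the 13-library fit (edgeR, adjusted p = 0.00455), and Timp4 did not pass (adjusted p = 0.130). The longest annotated transcript of Timp4 falls in the longest class, where the median was negative.

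Markers of vessel wall and blood cells varied widely among the high libraries. Myh11, smooth muscle myosin, was at 764 and 731 CPM in auranofin 2 and WD 2 and at 3195 and 4788 CPM in WD 5 and auranofin 1, against 3894 to 7520 CPM in the low group. Acta2, smooth muscle actin with a much shorter transcript, was at 4865 CPM in auranofin 2 but at 19658 CPM in WD 2, above the 12512 to 17388 CPM of the low group. WD 2 was thus low in the long contractile transcript and high in the short one, and the part of length was not tested. The smooth muscle markers, which define the media of an aorta, summed to 8486 to 40815 CPM in the high and 25304 to 35996 CPM in the low libraries. Pecam1, an endothelial surface protein, was at 1464 CPM in auranofin 2 and 256 to 699 CPM in the other 3, against 409 to 718 CPM. Erg, an endothelial transcription factor, was lower in all 4 at 12.1 to 57.3 against 66.4 to 88.0 CPM. It went against most of its list. Of 14 endothelial genes, 8 had a positive log2 fold change on the nuclear total and 12 with the copies left out. With the copies left out the list's median was 0.50, and -0.63 between the WD libraries alone. Cd68 of macrophages ran from 26.9 to 306 against 93.7 to 283 CPM.

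Of the 8 libraries, auranofin 2 held the most RNA of T cell, B cell and neutrophil markers. Igkc, the kappa light chain constant gene, was at 725 CPM there and at 9.44 to 12.05 CPM in the other 3 high libraries, against 3.55 to 23.7 CPM. For Igkc the log2 fold change was 4.13 ± 1.45 (SE, edgeR, adjusted p = 0.185), 4.65 with the copies left out, and -0.02 on the nuclear total without auranofin 2, so 1 library set it. The neutrophil genes S100a8 and Retnlg were higher in all 4. S100a8 was at 18.4, 8.34, 2.73 and 4.27 CPM in auranofin 2, WD 2, WD 5 and auranofin 1, against 0.410 to 2.36 CPM, and Retnlg at 1.23 to 4.12 against 0.307 to 0.885 CPM. Both rose in the 13-library fit (edgeR, adjusted p = 0.0179 and 0.0418), from levels near the floor of the table. Hbb-bs, a globin of red cells, ran from 883 to 2634 against 378 to 1691 CPM.

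Cytosolic ribosomal proteins, another group of short and abundant transcripts, had a median log2 fold change of 0.86 on the nuclear total and 1.16 with the copies left out. Of 76 tested, 69 were higher at an unadjusted p under 0.05 with the copies left out, against 9.19% of all genes. Groups were apart for 9, against 4.13%, and 2, Rpl36 and Rpl38, rose in the 13-library fit, against 1.28%. Rps27 was at 407, 952, 624 and 259 CPM in auranofin 2, WD 2, WD 5 and auranofin 1, and at 243, 146, 259 and 261 CPM in WD 4, atorvastatin 1, combination 1 and WD 1. Auranofin 1 lay inside the low range on this scale. Rpl36 behaved alike, with 108, 209, 173 and 74.2 against 45.3 to 75.7 CPM. Against the 13-library mean, with the copies left out, the list's median was 1.68 in WD 2 and -0.13 in auranofin 1. Many of these genes have near-identical pseudogenes, so their counts are uncertain.

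Immediate early genes, which are induced within minutes of handling or stimulation, were lower in the high libraries at an unadjusted p under 0.05 for 8 of 17 on the nuclear total, against 18.8% of all genes. With the copies left out 6 were lower, against 6.18%, and 2 had groups apart, against 4.77%. Atf3 was at 27.0 to 61.0 against 73.4 to 147 CPM and Egr2 at 1.66 to 5.68 against 8.25 to 10.5 CPM. Ccn1 ran from 302 to 624 against 647 to 1477 CPM. Fos overlapped, at 51.0 to 185 against 103 to 299 CPM. None of these passed in the 13-library fit. Among nuclear RNAs that stay in the nucleus, Malat1 was at 222 to 760 against 418 to 549 CPM and Neat1 at 97.8 to 632 against 554 to 672 CPM, and WD 2 was the lowest of the 8 libraries in both. Genes of the heat shock response had a median of -0.37, of the unfolded protein response -0.35 and of splicing and polyadenylation -0.51. These lay near the median of all genes on the nuclear total. Heat shock genes split within the high group. Against the 13-library mean, with the copies left out, their median was 1.33 in auranofin 1. It was -0.45 in auranofin 2, -0.77 in WD 2 and -0.98 in WD 5, with -0.17 to 0.40 in the low libraries. Between the WD libraries alone, on the nuclear total, the medians of these lists were -1.09, -0.56 and -1.04, against -0.57 over all genes. No member of these lists passed in the 13-library fit, nor did any of the lists for white fat, heart, skeletal and smooth muscle, endothelium, macrophages, foamy macrophages, T cells, B cells, red cells, platelets, nerve, histones and nuclear RNAs.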

How the data were processed

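Read counts per gene were deposited by the authors as 1 table of 56953 genes for 13 libraries, raw and not normalized. Per the submitters' processing notes the tools were STAR 2.6.1d and featureCounts of Subread 1.6.3 and the build GRCm39, and per the labels' protocols the libraries were non-stranded and poly-A selected. How reads with several matches were counted is not given in the sources used here, and this bears on the nuclear copies. Without strand, reads of a gene and an antisense partner cannot be told apart. All count columns were used, and no 2 libraries agreed within sampling noise (closest pair, WD 3 and atorvastatin 3, chi-squared per degree of freedom 18.9).

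High and low libraries were compared with edgeR 4.0.16 (R 4.3.3), quasi-likelihood test, library size set to the nuclear count, filterByExpr, Benjamini-Hochberg adjustment over all genes. DESeq2 1.42.0, limma 3.58.1 voom, other scalings and filters, treatment as a term and each library left out were alternatives. The copies were found with BLAST 2.17.0 among GENCODE M21 transcripts (GRCm38, another build than the counts; identity of at least 90% over at least 100 bases and 50% of the transcript), and coordinates and lengths are from that annotation. Every fit with the copies left out was added after seeing the data. CPM, a counts-per-million value, was taken of the nuclear total, copies included. Deviations from the 13-library mean and the counts of genes whose groups were apart were taken with the copies left out, the deviations as log2 with a pseudocount of 0.5 CPM.

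The libraries and gene lists were chosen with earlier results of these data known. Genes named are the 5 with the smallest p in each direction, none of which passed, up to 4 per list and a set of genes known for their roles. Predicted genes and immunoglobulin or T cell receptor segments were left out of the first of these. Chosen for naming after their values were seen were Cox6c, Atp5md, Atp5l and the copies. So were the members listed in brackets or by name beside a count of 5 or fewer.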

Additional observations from a re-analysis of the deposited data

Results flagged for a closer look

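In groups of 4 or 5 libraries a value was picked out where its gap to the nearest other library took up most of the range. Of 207 groups examined 16 were picked out, where 10.4 would be by chance alone. All values are CPM.

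Among the low libraries, atorvastatin 1 stood apart in 7 genes. It was the lowest for Ndufs8 at 36.4 (others 51.2 to 54.1), Cox7a2 at 55.2 (75.6 to 78.7), Atp5mpl at 23.6 (39.1 to 40.8), Tomm7 at 28.9 (46.4 to 48.2), Hspe1 at 34.9 (53.9 to 57.5) and Rps27 at 146 (243 to 261). It was the highest for Pprc1 at 48.0 (30.0 to 32.5). These 6 low genes have short transcripts, and atorvastatin 1 had the highest value of the longest minus the shortest length class of the 13 libraries, at 0.85. The part of length in these values was not tested.

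WD 4 was the highest of the low libraries for Adipoq at 170 (36.6 to 54.0) and Retn at 31.6 (2.51 to 5.49), both of fat cells, and the lowest for Polrmt at 15.8 (22.2 to 23.1). Among the high libraries, auranofin 2 was the highest for Igkc at 725 (9.44 to 12.05) and auranofin 1 for Ibsp at 13.5 (1.28 to 2.68). Among the 5 WD libraries, WD 1 was the highest for Chad at 146 (0.577 to 27.8) and Ibsp at 298 (1.94 to 46.9), and WD 2 for the neutrophil genes Retnlg at 3.78 (0.208 to 1.23) and S100a8 at 8.34 (0.675 to 2.73).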

How the results depend on the processing

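The count of nuclear genes called between high and low libraries depended on the fit. It was 0 with edgeR on the nuclear total, also with TMM factors, median-of-ratios factors, the stricter filter and limma voom. It was 28 scaled to all counts, 782 with DESeq2, 76 without the low-count filter, 2 with treatment as a covariate and 20 within the WD libraries. It was 1126 with the intermediate libraries as a separate group, 3886 with the share as a number and 3325 with treatment added. Leaving out 1 library gave 0 to 4226, the highest without auranofin 1. With the copies left out, chosen after seeing the data, the count was 0, and 510 also without auranofin 1, 20 within WD, 137 with the intermediate group, 1190 with the share as a number, 297 with treatment added (399 with TMM), and 564 with DESeq2. Leaving a library out of the fit of 297 genes gave 51 (auranofin 2), 103 (auranofin 3), 107 (WD 1), 125 (atorvastatin 3), 126 (atorvastatin 1), 144 (auranofin 1), 154 (WD 4), 165 (WD 5), 168 (atorvastatin 2), 215 (WD 2), 369 (combination 1), 370 (combination 2) and 1430 (WD 3). The cause was not tested. Of genes with an unadjusted p under 0.05, 16.0% were higher on the nuclear total, 59.8% with the copies left out and 69.0% with TMM.

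The sign of 12 named genes changed under 1 or more alternatives, among them Igkc (4.13 on the nuclear total), Ppargc1a (0.96), Adipoq (0.87) and Pecam1 (0.47). With TMM, median-of-ratios and the copies left out, Tfam was at 0.26, 0.27 and 0.18, Atp5a1 at 0.31, 0.32 and 0.24 and Acta2 at 0.40, 0.40 and 0.23, and Cd68 was at 0.069 and 0.092 with the first 2. With treatment as a covariate and within WD, Ppargc1a was at -0.91 in both, Ndufs1 at -0.76, Sdha at -0.67, Cs at -0.38, Acta2 at 0.53, Malat1 at -0.24, Adipoq at -0.23 and Pecam1 at -0.79. Both settings take the difference from the same WD libraries, because each drug treatment lay in only 1 group. They are thus 1 comparison and not 2. Scaled to all counts and with voom, Ndufs1 was at -0.23 and -0.055, Sdha at -0.25 and -0.069, Cs at -0.30 and -0.076 and Malat1 at -0.19 and -0.050. With the share as a number, and then with treatment, Cs was at -0.0076 and -0.015 and Malat1 at -0.012 and -0.16, and Ndufs1 was at -0.0034 with treatment. Leaving out each of the 8 libraries in turn gave a range from -0.28 to 0.27 for Acta2, -0.19 to 0.066 for Atp5a1, -0.16 to 0.25 for Cs, -0.019 to 4.87 for Igkc, -0.15 to 0.34 for Malat1, -0.17 to 0.36 for Ndufs1, -0.14 to 0.75 for Pecam1 and -0.15 to 0.33 for Sdha.

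No paired analysis was possible because nothing in the labels ties a high library to a low one. Counts at or under a few reads, as for Myl2 in the high libraries, limit what the low genes can show, and intervals of the fits cover the spread of 4 against 4 libraries.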
